A study of Homo sapiens with 6 samples.

Results

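The actin cytoskeleton and contractile genes described here are *ACTB*, *ACTG1*, *ACTN1*, *ZYX*, *VCL*, *MYL9*, *TAGLN*, *CNN1*, *TPM1* and *TPM2*. They were taken by symbol from an RNA-seq table of 50868 genes, and all 10 were found in it. The RNA came from UM-UC-3 and 5637 cells, both established human bladder cancer lines. Cells of each line carried a lentiviral hairpin, either a negative control (NC) or 1 of 2 hairpins against the long noncoding RNA LNMAT1 (sh#1 and sh#2), and all of them, the NC cells included, had been selected with puromycin. The design asks which transcripts change when LNMAT1 is lowered. There was 1 library per construct and line, 6 in all. No group had a replicate, so where a test is given the hairpins of a line, or the lines, stand in for replicates, and its p-value measures only the spread between those libraries. Values are FPKM, fragments scaled to the length of the transcript and the depth of the library. The libraries held between 19375000 and 24707000 fragments, as recovered from the steps between the values of genes with a single exon.

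Actin monomers assemble into filaments, and *ACTB* and *ACTG1* encode the β and γ cytoplasmic actins found in most cells. α-Actinin 1 (*ACTN1*) cross-links filaments, and zyxin (*ZYX*) and vinculin (*VCL*) sit with it at focal adhesions, where filaments are anchored to the cell membrane. Tropomyosins (*TPM1*, *TPM2*) lie along the filament and govern which proteins can bind it. *MYL9*, a regulatory light chain of myosin II, transgelin (*TAGLN*) and calponin 1 (*CNN1*) are best known from smooth muscle, which forms the muscular wall of the bladder. Many of these genes are textbook targets of serum response factor (SRF), which binds the CArG box and is switched on by cofactors that sense free actin monomers.

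The target of the hairpins was read first, as a check of the labels. LINC01296, the annotated name of LNMAT1, stood at 14.2 FPKM in UM-UC-3 NC, 6.20 in UM-UC-3 sh#1 and 6.70 in UM-UC-3 sh#2. It stood at 11.7 FPKM in the library labelled 5637 NC, 4.70 in 5637 sh#1 and 2.14 in 5637 sh#2. Each hairpin library was therefore below the NC library of its own label, at 43.8% and 47.4% of it in UM-UC-3 and at 40.1% and 18.3% in 5637. The 5637 percentages rest on the library labelled 5637 NC, which went against its line label, as given below. In them knockdown and a difference between the lines cannot be told apart. The effect fitted over both lines, which also uses that library, was −1.40 on the log2 scale and did not pass the threshold (limma adjusted p = 0.57).

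The line labels did not hold up equally well. Over the 12717 genes that averaged 1 FPKM or more, the root mean square log2 difference between the library labelled 5637 NC and UM-UC-3 sh#1 was 0.303, the smallest of all pairs of libraries, while its distance to each of the other 5637 libraries was 1.48. Within UM-UC-3, sh#1 lay 0.670 from NC and 0.629 from sh#2, whereas NC and sh#2 lay 0.427 apart. The 5637 sh#1 and sh#2 libraries lay 0.373 apart. Epithelial markers divided the libraries in the same way. Keratin 19 (*KRT19*) stood at 0.0629 to 0.113 FPKM in the UM-UC-3 libraries, 0.0729 in the library labelled 5637 NC, and 300 and 409 in 5637 sh#1 and sh#2. The summed FPKM of 7 epithelial markers was 21.3 to 30.9 in UM-UC-3, 26.7 in the library labelled 5637 NC, and 700.5 and 945 in the other 5637 libraries. Vimentin (*VIM*), a mesenchymal filament protein, had the opposite order, with 116 to 332 FPKM in UM-UC-3, 103 in the library labelled 5637 NC, and 3.85 and 4.14 in 5637 sh#1 and sh#2. Of 4 mesenchymal markers, *CDH2* and *ZEB1* were also lowest in 5637 sh#1 and sh#2, and *FN1* went the other way. *FN1* stood at 0.816 to 2.27 FPKM in UM-UC-3, 0.884 in the library labelled 5637 NC, and 110 and 102 in 5637 sh#1 and sh#2. So the library labelled 5637 NC went against its line label in these genes. It is called by its label throughout, and how this came about was not tested. The main comparison below leaves it out, and each comparison that uses it says so.

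Of the 10 genes, 7 averaged 1 FPKM or more over the 6 libraries. *MYL9*, *TAGLN* and *CNN1* did not, and were left out of every test. The actins were the most abundant by far, with means of 171 FPKM for *ACTB* and 151 for *ACTG1*. *ZYX*, *TPM2*, *VCL* and *ACTN1* followed with means of 35.1, 33.0, 32.3 and 21.7 FPKM, and *TPM1* with 11.8. The ranges of *ZYX*, *TPM2* and *VCL* over the libraries overlapped widely, so no order can be read among them. The order of the means did not hold in each library: in 5637 sh#1 and sh#2 *TPM2* was the lowest of the 7, below *TPM1*, and *ACTN1* was above *ZYX*. Together the 10 genes took 0.177% to 0.228% of all FPKM in the UM-UC-3 libraries and the library labelled 5637 NC, and 0.308% and 0.272% in 5637 sh#1 and sh#2. The actins gave 52.7% to 60.5% of that sum in the first set of libraries and 87.5% and 87.9% in 5637 sh#1 and sh#2.

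**Figure D1:**
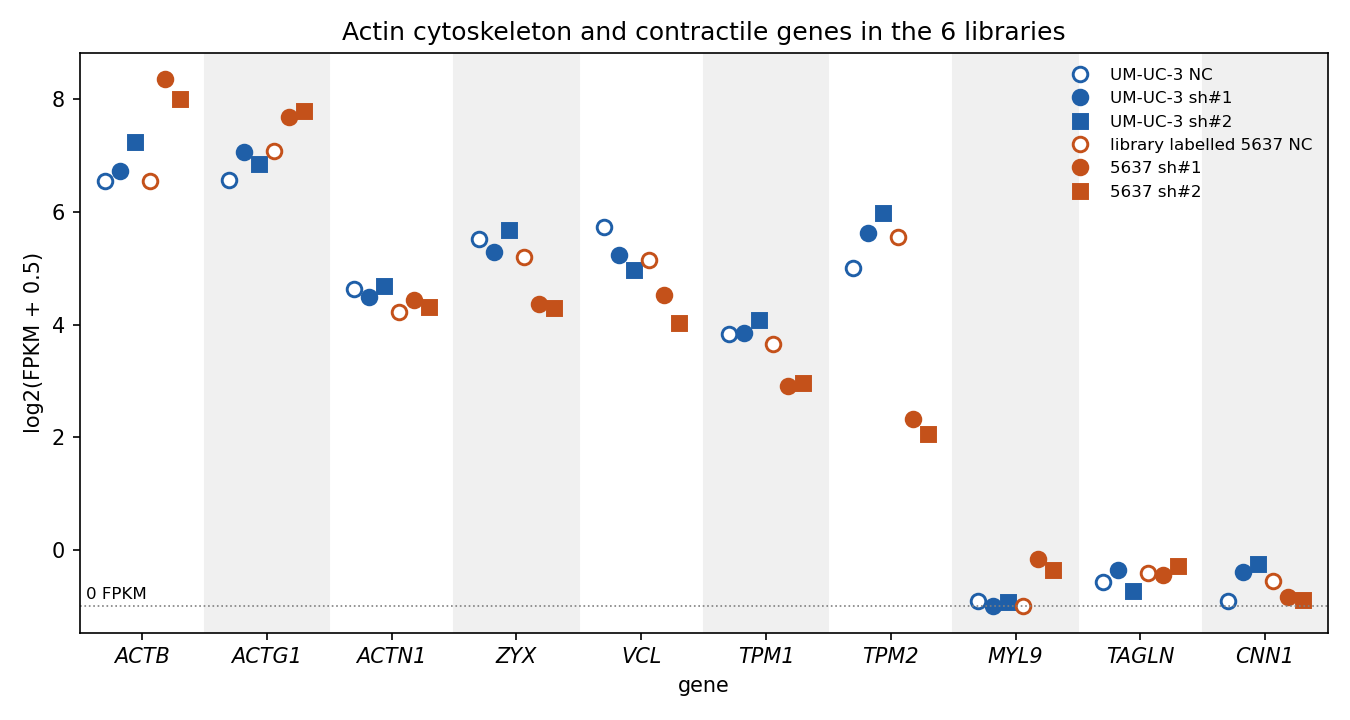
Level of each of the 10 genes in each library as log2(FPKM + 0.5), with 1 point per library; blue marks UM-UC-3, orange 5637, open circles NC, filled circles sh#1 and squares sh#2, and the dotted line is 0 FPKM. The 5637 sh#1 and sh#2 points lie above the others for *ACTB* and *ACTG1* and below them for *ZYX*, *VCL*, *TPM1* and *TPM2*, whereas *MYL9*, *TAGLN* and *CNN1* stay under 0.4 FPKM in every library. The share of all genes that separate in this way was not counted.

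*ACTB* (ENSG00000075624, chr7:5527151-5563784, minus strand, hg38) was measured at 92.9, 106 and 151 FPKM in UM-UC-3 NC, sh#1 and sh#2, at 93.7 in the library labelled 5637 NC, and at 327 and 258 in 5637 sh#1 and sh#2. The 5637 hairpin libraries were the highest and did not overlap the other 4. Over 12717 genes they lay 1.42 to 1.48 from those libraries, as root mean square log2 difference. The share of all genes that separate in this way was not counted. Among the 4 knockdown libraries, those labelled sh#1 or sh#2, *ACTB* was higher in 5637 than in UM-UC-3, with means of 293 and 128 FPKM. The log2 difference was 1.20 with a standard error of 0.26 (limma adjusted p = 0.018). *ACTG1* (ENSG00000184009, chr17:81509971-81523847, minus strand) stood at 94.7, 134 and 116 FPKM in UM-UC-3 NC, sh#1 and sh#2, at 135 in the library labelled 5637 NC, and at 205 and 221 in 5637 sh#1 and sh#2. It ran in the same direction as *ACTB* with a smaller difference, 0.77 ± 0.19 on the log2 scale (SE, limma adjusted p = 0.027). The ratio of *ACTB* to *ACTG1* did not separate the lines, with 0.790 to 1.31 in UM-UC-3 and 1.60 and 1.17 in 5637 sh#1 and sh#2. Both genes have processed pseudogenes whose reads could be misplaced. The 10 *ACTB* pseudogenes in the table summed to 0.340% to 0.599% of the *ACTB* value in the 6 libraries, and the 20 *ACTG1* pseudogenes to 1.46% to 4.14% of the *ACTG1* value.

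*ACTB* also serves as a reference gene in expression assays, so it was set against others used for that purpose. Of 14 such genes, all tested, 2 were higher and 2 lower in 5637 than in UM-UC-3 in the knockdown libraries, and 10 were not called, where 20.1% of all 12844 genes tested were higher and 18.4% lower. The glycolytic enzyme *GAPDH*, the most abundant by its mean over the libraries, was lower in 5637 by a log2 difference of −0.81 ± 0.23 (SE, limma adjusted p = 0.039), and the purine salvage enzyme *HPRT1* by −0.80 ± 0.21 (limma adjusted p = 0.034). The transferrin receptor *TFRC* (0.81 ± 0.21, limma adjusted p = 0.034) and the tubulin *TUBB* (0.76 ± 0.22, limma adjusted p = 0.044) were higher. In 5637 sh#1 and sh#2 *TUBB*, at 624 and 552 FPKM, was above *GAPDH*, at 415 and 344. With the libraries scaled to 1 75th percentile, 1 gene of the list was called higher in place of 2. The ratio of *ACTB* to *GAPDH* was 0.111 to 0.200 in UM-UC-3, 0.156 in the library labelled 5637 NC, and 0.789 and 0.750 in 5637 sh#1 and sh#2. The ratio to *TBP*, a general transcription factor chosen after its values were seen, ran from 7.51 to 11.8 in UM-UC-3 and stood at 34.8 and 28.5 in 5637 sh#1 and sh#2. In both ratios the 5637 hairpin libraries were above the other 4 and did not overlap them. How often ratios of other genes separate in this way was not counted.

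**Figure D2:**
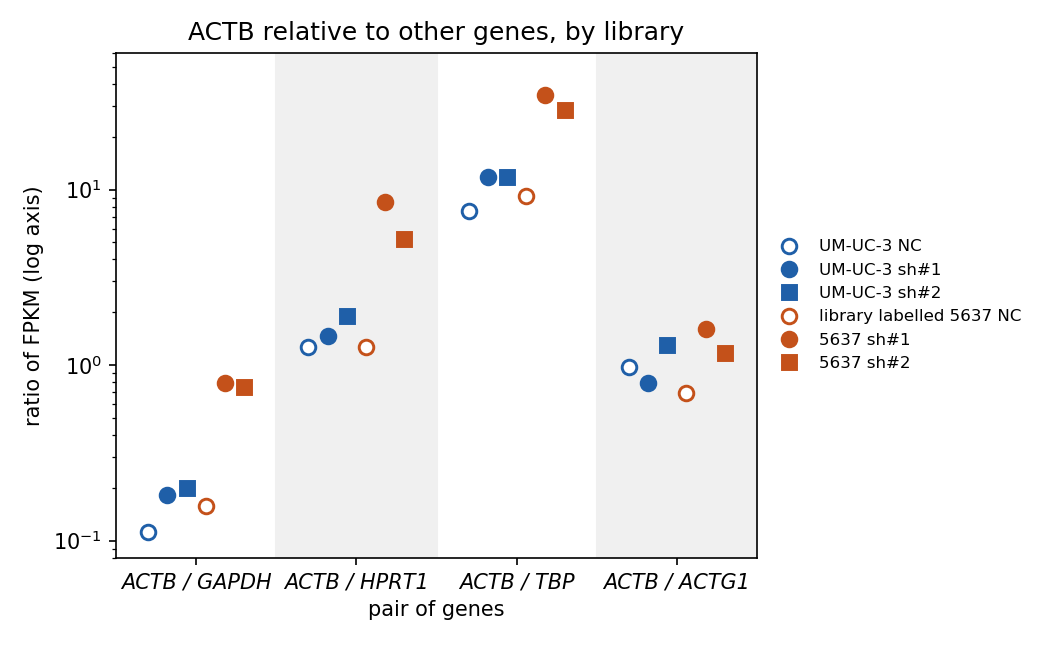
Ratio of the FPKM of *ACTB* to that of *GAPDH*, *HPRT1*, *TBP* and *ACTG1* on a log axis, 1 point per library, with symbols as in the plot of the members' levels. The 5637 sh#1 and sh#2 points stand apart from the other 4 libraries in the first 3 ratios (0.789 and 0.750 against 0.111 to 0.200 for *GAPDH*) and lie within reach of them in the ratio to *ACTG1*.

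Of the focal adhesion members, *ZYX* and *VCL* were called lower in 5637 and *ACTN1* was not called. *ZYX* (ENSG00000159840, chr7:143381080-143391111, plus strand) stood at 45.6, 38.6 and 50.7 FPKM in UM-UC-3 NC, sh#1 and sh#2, at 36.4 in the library labelled 5637 NC, and at 20.2 and 19.2 in 5637 sh#1 and sh#2. It was lower in 5637 than in UM-UC-3 in the knockdown libraries by −1.15 ± 0.22 on the log2 scale (SE, limma adjusted p = 0.012). *VCL* (ENSG00000035403, chr10:73995193-74121363, plus strand) stood at 52.8, 37.2 and 30.9 FPKM in UM-UC-3 NC, sh#1 and sh#2, at 34.8 in the library labelled 5637 NC, and at 22.5 and 15.8 in 5637 sh#1 and sh#2. Its line difference was −0.83 ± 0.25 (SE, limma adjusted p = 0.048), close to the threshold, and it passed in 5 of 14 alternative settings (adjusted p 0.024 to 0.34). *VCL* was also the only gene of the 7 in which the NC library of each label was the highest of its 3. Both hairpin libraries were below NC, by any amount, in 3798 of 12025 genes in UM-UC-3 and in 5477 of 12791 in 5637. The share of genes below NC in both lines was not counted, and the 5637 part rests on the library labelled 5637 NC. The ratio of *VCL* to *ACTB* was 0.204 to 0.568 in UM-UC-3 and 0.0686 and 0.0613 in 5637 sh#1 and sh#2. *ACTN1* (ENSG00000072110, chr14:68874143-68979440, minus strand) had the narrowest range of the 7 genes tested, with 24.3, 22.1 and 25.4 FPKM in UM-UC-3 NC, sh#1 and sh#2, 18.2 in the library labelled 5637 NC, and 21.1 and 19.4 in 5637 sh#1 and sh#2. Its line difference of −0.22 was not called, with a 95% interval from −0.71 to 0.27 (limma adjusted p = 0.41). Its paralog *ACTN4*, the other nonmuscle α-actinin, was higher in 5637 in the knockdown libraries (0.67 ± 0.19, limma adjusted p = 0.042). It stood at 93.7, 57.0 and 65.3 FPKM in UM-UC-3 NC, sh#1 and sh#2, at 65.2 in the library labelled 5637 NC, and at 102 and 92.5 in 5637 sh#1 and sh#2, so with UM-UC-3 NC included the ranges overlapped. The ratio of *ACTN4* to *ACTN1* was 2.57 to 3.87 in UM-UC-3 and 4.84 and 4.77 in 5637 sh#1 and sh#2.

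Of the 7 genes tested, *TPM2* had the widest log2 difference between the lines. *TPM2* (ENSG00000198467, chr9:35681992-35691020, minus strand) stood at 31.6, 48.8 and 62.6 FPKM in UM-UC-3 NC, sh#1 and sh#2, at 46.7 in the library labelled 5637 NC, and at 4.49 and 3.66 in 5637 sh#1 and sh#2. In the knockdown libraries its mean was 13.7-fold higher in UM-UC-3 than in 5637, and the log2 difference was −3.61 ± 0.23 (SE, limma adjusted p = 0.00035). *TPM1* (ENSG00000140416, chr15:63042632-63071915, plus strand) stood at 13.7, 13.9 and 16.4 FPKM in UM-UC-3 NC, sh#1 and sh#2, at 12.1 in the library labelled 5637 NC, and at 7.07 and 7.29 in 5637 sh#1 and sh#2. Its line difference was −1.03 ± 0.20 (SE, limma adjusted p = 0.013). Thus *TPM2* was the more abundant of the pair in UM-UC-3, at 2.30 to 3.81 times *TPM1*, and the less abundant in 5637 sh#1 and sh#2, at 0.636 and 0.502 times. *TPM3* and *TPM4*, the other tropomyosin genes, did not pass the same test, with log2 differences of −0.35 ± 0.45 (limma adjusted p = 0.57) and 0.15 ± 0.26 (limma adjusted p = 0.68). Their shares were looked at after their values were seen. Of the summed FPKM of the 4 tropomyosin genes, *TPM2* took 42.9% to 48.7% in UM-UC-3, 43.0% in the library labelled 5637 NC, and 7.69% and 4.24% in 5637 sh#1 and sh#2. *TPM4* took 18.1% in UM-UC-3 NC, 35.3% and 34.4% in UM-UC-3 sh#1 and sh#2, 37.2% in the library labelled 5637 NC, and 69.7% and 69.1% in 5637 sh#1 and sh#2. Gene-level values do not separate the many isoforms that each tropomyosin gene makes.

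The smooth muscle members were near the limit of detection. *MYL9* (ENSG00000101335, chr20:36541484-36551447, plus strand) stood at 0.0334, 0 and 0.0240 FPKM in UM-UC-3 NC, sh#1 and sh#2, was listed at 0 in the library labelled 5637 NC, and stood at 0.397 and 0.284 in 5637 sh#1 and sh#2. Depending on which transcript length the values rest on, these were 8.45 to 23.3 fragments in 5637 sh#1, 5.63 to 15.5 in 5637 sh#2, and at most 2.33 in each of the other libraries, which is under the floor of 3 fragments. A value of 0 allows up to 0.131 FPKM in the library labelled 5637 NC. *TAGLN* (ENSG00000149591, chr11:117199321-117204782, plus strand) lay between 0.103 and 0.321 FPKM in the 6 libraries, and the ranges of the lines overlapped. *CNN1* (ENSG00000130176, chr19:11538717-11550323, plus strand) stood at 0.0361, 0.260 and 0.337 FPKM in UM-UC-3 NC, sh#1 and sh#2, at 0.179 in the library labelled 5637 NC, and at 0.0572 and 0.0384 in 5637 sh#1 and sh#2. The most fragments were in UM-UC-3 sh#2, 3.96 to 22.3, and the fewest in 5637 sh#2, 0.381 to 2.15, and the differences were not tested. Of 8 smooth muscle markers, the myosin *MYH11* was at most 0.0299 FPKM and desmin (*DES*) was at 0 in 5 of 6 libraries. *SMTN*, the most abundant by its mean over the libraries, stood at 1.64 to 6.28 FPKM. In 5637 sh#1 *ACTA2* of the same list was above it, at 1.92 FPKM. The 8 summed to 4.09 to 9.39 FPKM in UM-UC-3, 8.27 in the library labelled 5637 NC, and 3.79 and 3.88 in 5637 sh#1 and sh#2. Some relatives of these genes were more abundant. The transgelin relative *TAGLN2* stood at 80.6 to 117 FPKM and the light chain *MYL12B* at 147 to 178 FPKM, and neither was called between the lines. The calponin relative *CNN2* stood at 9.81, 5.51 and 12.6 FPKM in UM-UC-3 NC, sh#1 and sh#2, at 5.29 in the library labelled 5637 NC, and at 52.3 and 47.6 in 5637 sh#1 and sh#2. *CNN2* was higher in 5637 by a log2 difference of 2.51 ± 0.39 (SE, limma adjusted p = 0.0064).

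Read as a whole, the comparison of 5637 with UM-UC-3 in the knockdown libraries called 6 of the 7 members tested: *ACTB* and *ACTG1* higher in 5637, and *ZYX*, *VCL*, *TPM1* and *TPM2* lower. Over 12844 genes tested, limma called 20.1% higher and 18.4% lower at an adjusted p under 0.05, so calls are common in this comparison. The median log2 difference of the 7 members was −0.83, and that of all genes tested −0.02. Each of the 7 members averaged over 1 FPKM in either line. The epithelial markers and *VIM* divided the same libraries, as given above, while the mesenchymal marker fibronectin (*FN1*) was higher in 5637, and their part in the members' differences was not tested. The call rests on both 5637 hairpin libraries. With either left out, which leaves 1 sample for that line that is assumed to vary like the other, 1 member was called, *TPM2*, and 1192 to 1221 genes. With all 6 libraries grouped by their labelled line, which puts the library labelled 5637 NC with 5637, no member was called by limma and 2 genes in all. Without the filter on low values *ACTB* and *ACTG1* also lost their calls (limma adjusted p = 0.076 and 0.074, in ranges over all alternatives of 0.0071 to 0.40 and 0.013 to 0.34). In bulk RNA, fewer cells that make a transcript and less of it per cell cannot be told apart.

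**Figure D3:**
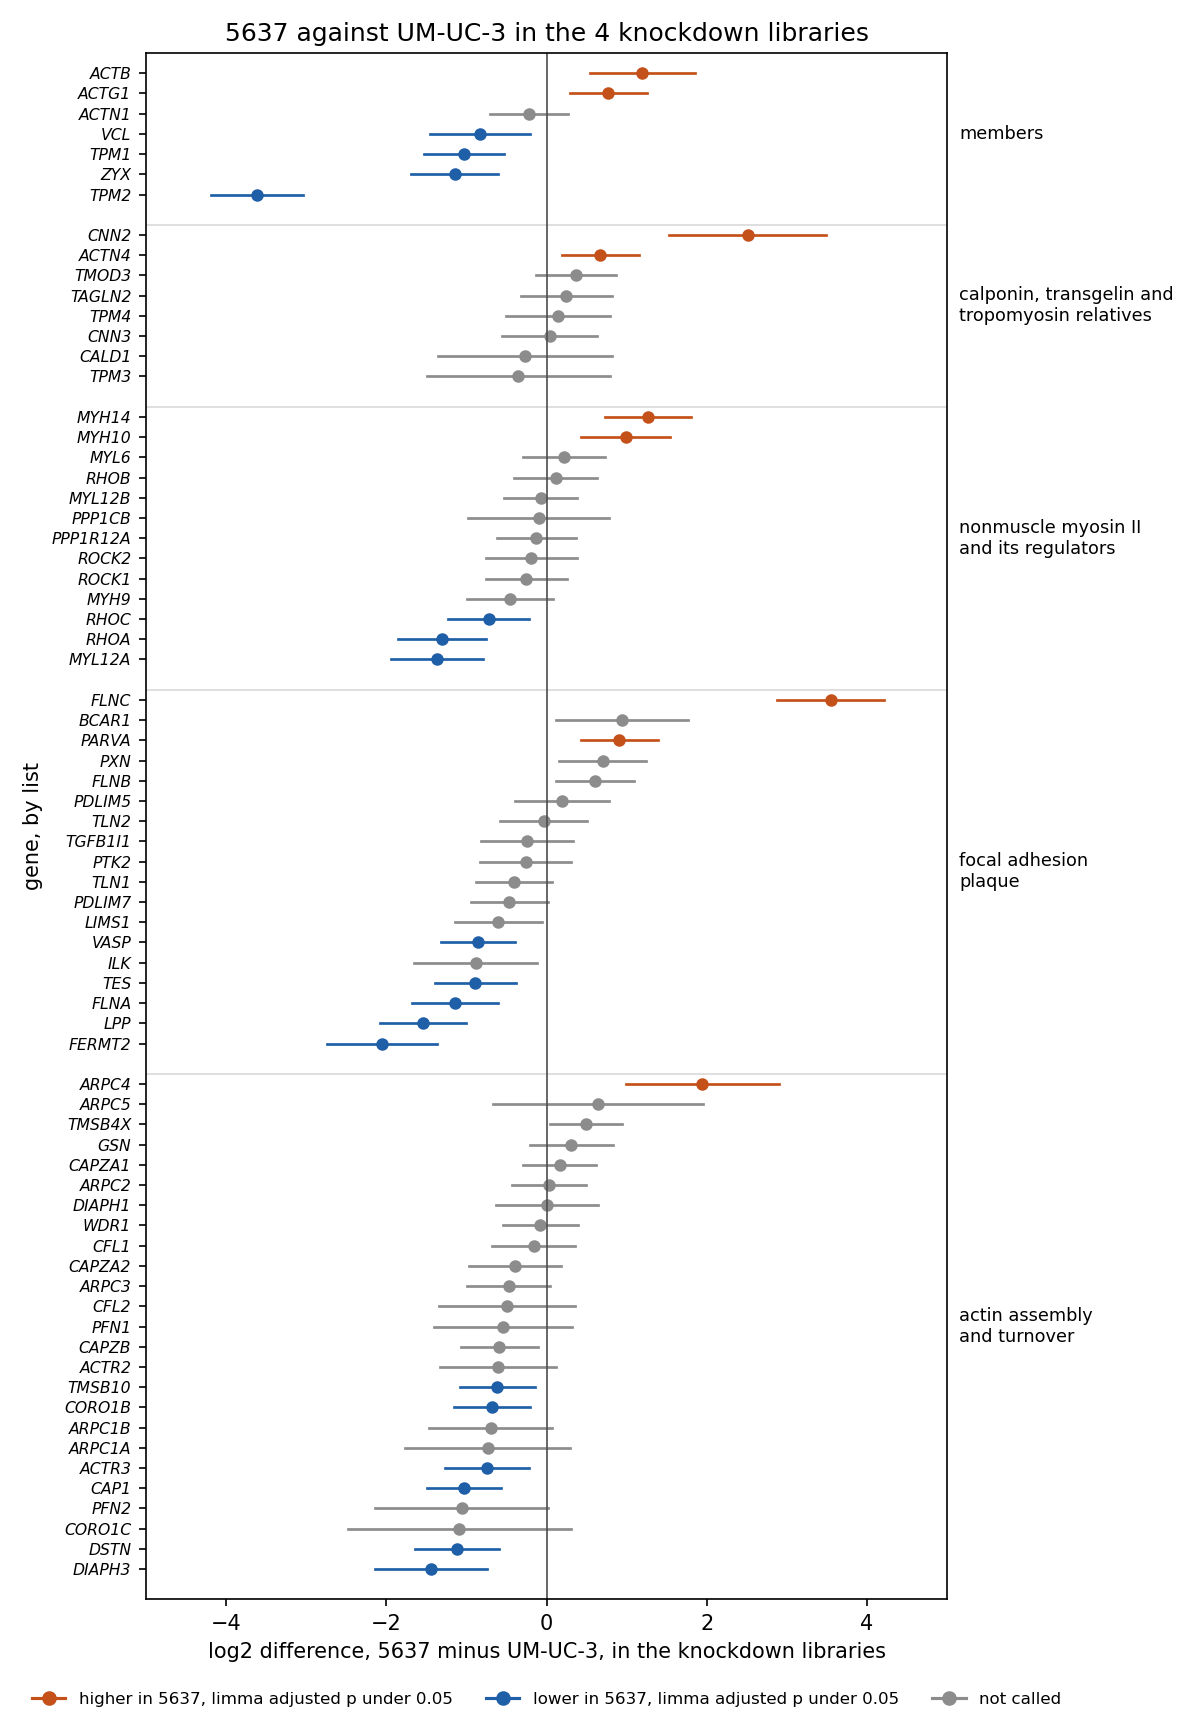
Log2 difference of 5637 minus UM-UC-3 in the 4 knockdown libraries for the genes tested in the members and 4 related lists, with the 95% interval of the limma fit; each row is a gene, and orange marks genes called higher in 5637, blue lower, and grey not called. *TPM2* (−3.61) lies farthest to the left and *FLNC* (3.55) farthest to the right.

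The counts for other genes of the actin system stand beside the same shares over all genes tested, 20.1% higher and 18.4% lower in 5637. Of 18 focal adhesion plaque genes, all tested, 2 were higher and 5 lower in 5637, with a median log2 difference of −0.33. The filamin *FLNA*, an actin cross-linker and the most abundant of them, was lower by −1.14 ± 0.21 (SE, limma adjusted p = 0.011). Its paralog *FLNC*, best known from muscle, stood at 0.0110 to 0.0531 FPKM in UM-UC-3 and at 7.21 and 4.62 in 5637 sh#1 and sh#2. It passed the filter only through the 5637 libraries, so it had to differ and its call adds nothing to these values. The integrin activator kindlin 2 (*FERMT2*) was lower by −2.05 ± 0.27 (limma adjusted p = 0.0038). The zyxin relative *LPP* stood at 3.23 and 3.33 FPKM in UM-UC-3 sh#1 and sh#2, and at 0.925 and 0.680 in 5637 sh#1 and sh#2. *LPP* passed the filter only through UM-UC-3, so its call as lower adds nothing to these values. The counts include both *FLNC* and *LPP*. Of 25 genes of actin assembly and turnover, all tested, 1 was higher and 6 lower, with a median of −0.54. With the libraries rescaled to the same sum, 4 focal adhesion genes were called higher in place of 2, and 4 assembly genes lower in place of 6. The gene called higher was the Arp2/3 subunit *ARPC4* (1.94 ± 0.38, limma adjusted p = 0.013). The formin *DIAPH3* (−1.44 ± 0.28, limma adjusted p = 0.013), the depolymerising factor *DSTN* (−1.12 ± 0.21, limma adjusted p = 0.012) and *CAP1* (−1.03 ± 0.18, limma adjusted p = 0.010) were lower, as was *TMSB10*, a monomer-binding thymosin and the most abundant of the list at 957 to 1656 FPKM (−0.62 ± 0.19, limma adjusted p = 0.049).

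Of 14 genes of nonmuscle myosin II and its regulators, 13 were tested, with 2 higher and 3 lower in 5637, again beside 20.1% and 18.4% of all genes tested. The heavy chain *MYH10* was higher (0.99 ± 0.22, limma adjusted p = 0.021). The count of 2 higher includes another heavy chain, *MYH14*, which passed the filter only through 5637. It stood at 0.770 and 0.553 FPKM in UM-UC-3 sh#1 and sh#2 and at 2.19 and 2.39 in 5637 sh#1 and sh#2, and its call adds nothing to these values. The light chain *MYL12A* (−1.37 ± 0.23, limma adjusted p = 0.0083) and the GTPase *RHOA*, which promotes filament assembly and contraction (−1.30 ± 0.22, limma adjusted p = 0.0085), were lower. Of 11 calponin, transgelin and tropomyosin relatives, 8 were tested and 2 were higher, *CNN2* and *ACTN4*. Of the 4 other actin genes, the muscle actins, 1 was tested: *ACTA2*, at 0.828 to 3.01 FPKM, was not called (0.04 ± 0.43, limma adjusted p = 0.94). *SRF* itself stood at 27.0, 34.6 and 43.0 FPKM in UM-UC-3 NC, sh#1 and sh#2, at 36.7 in the library labelled 5637 NC, and at 17.6 and 17.1 in 5637 sh#1 and sh#2. *SRF* was lower in 5637 by −1.13 ± 0.20 (SE, limma adjusted p = 0.010), whereas its cofactor *MKL1* was not called (limma adjusted p = 0.46) and *MYOCD*, the cofactor of smooth muscle, was at most 0.0231 FPKM. With the libraries rescaled to the same sum, 3 of the 4 genes of *SRF* and its cofactors were tested in place of 2, and 1 was called higher and 1 lower. The added gene, *MKL2*, stood at 0.655 and 0.533 FPKM in UM-UC-3 sh#1 and sh#2, and at 1.52 and 1.27 in 5637 sh#1 and sh#2. It passed the filter only through 5637, so a call of it adds nothing to these values.

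Markers of other cell types were read in the same libraries. Most were too low to be tested, and the 2 that passed the filter, *COL1A1* and *CD68*, did so only through the line where they were high and had to differ, so only their values are given. Of 7 fibroblast and mural cell markers *COL1A1*, the most abundant by its mean over the libraries, stood at 0.0899 to 0.356 FPKM in UM-UC-3, 0.0515 in the library labelled 5637 NC, and 7.92 and 6.37 in 5637 sh#1 and sh#2, while *COL3A1* was at most 0.00865 FPKM. *PDGFRA*, not tested and named after its values were seen, had the opposite order, with 0.316 to 0.637 FPKM in UM-UC-3, 0.533 in the library labelled 5637 NC, and 0.0205 and 0.0441 in 5637 sh#1 and sh#2. The list summed to 0.795 to 1.32 FPKM in UM-UC-3, 0.975 in the library labelled 5637 NC, and 8.44 and 6.91 in 5637 sh#1 and sh#2. Of 6 leukocyte and endothelial markers *CD68*, the most abundant by its mean, stood at 13.0 to 29.2 FPKM in UM-UC-3, 31.0 in the library labelled 5637 NC, and 0.749 and 0.826 in 5637 sh#1 and sh#2. *CD14* and *VWF*, not tested and named after their values were seen, had the opposite order. *CD14* stood at 0.0105 to 0.151 FPKM in UM-UC-3, 0.104 in the library labelled 5637 NC, and 0.661 and 0.388 in 5637 sh#1 and sh#2, and *VWF* was at most 0.00710 FPKM in the first 4 of these libraries and stood at 0.141 and 0.0653 in 5637 sh#1 and sh#2. The pan-leukocyte marker *PTPRC* was listed at 0 in 5 of 6 libraries, and the list summed to 13.1 to 29.5 FPKM in UM-UC-3, 31.2 in the library labelled 5637 NC, and 1.60 and 1.51 in 5637 sh#1 and sh#2.

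Knockdown of LNMAT1 was then compared with NC. In UM-UC-3, read by a fold rule without a test, none of the 7 members that averaged 1 FPKM or more was at least 2-fold from NC with both hairpins, where 1.08% of 12025 genes were higher and 0.358% lower by that rule. *MYL9*, *TAGLN* and *CNN1* were below that filter and are not in this count. Of the 7, *TPM2* came nearest, at 1.55-fold and 1.98-fold of NC with sh#1 and sh#2. *ACTB* (1.14-fold and 1.63-fold), *ACTG1* (1.41-fold and 1.22-fold) and *TPM1* (1.02-fold and 1.20-fold) were also above NC with both hairpins. *VCL* was below NC with both, at 70.5% and 58.4% of it. By any amount, 3971 of the 12025 genes were above NC with both hairpins and 3798 below it. Of the 8 calponin, transgelin and tropomyosin relatives above the filter, 1 was past 2-fold with both hairpins: *TPM4*, at 11.7 FPKM in UM-UC-3 NC, was 3.43-fold and 4.20-fold of it with sh#1 and sh#2. In 5637 *TPM4* was 1.01-fold and 1.47-fold of the library labelled NC. In 5637, the same rule took 18.5% of 12791 genes as higher and 12.3% as lower than the library labelled NC, and among the 7 members *ACTB* was higher (3.49-fold and 2.75-fold) and *TPM2* lower (9.61% and 7.83% of NC). Both numbers rest on the library labelled 5637 NC, and without it 5637 has no control and gives no value. Its *ACTB* and *TPM2* values lay within the range of the UM-UC-3 libraries.

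With both lines in 1 fit and the line as a covariate, limma called 0 of 12717 genes (0%) for knockdown against NC, although 811 had an unadjusted p under 0.05, 2 members among them. These 2 were *ACTB*, with a log2 difference of 1.03 ± 0.36, and *VCL*, with −0.75 ± 0.26 (SE, limma adjusted p = 0.57 for both). Without UM-UC-3 NC, which leaves the library labelled 5637 NC as the only control, 4025 genes were called, *ACTB* (1.63, limma adjusted p = 0.017) and *TPM2* (−3.37, limma adjusted p = 0.0011) among them; over all alternatives the adjusted p ran from 0.017 to 0.99 and from 0.0011 to 0.99. Without the library labelled 5637 NC no gene was called, and the difference of *TPM2* changed sign, from −1.29 to 0.80.

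The difference in the knockdown effect between the lines was tested as an interaction. It was called in 2388 of 12717 genes (18.8%) and in 1 of the 7 members, *TPM2*. For *TPM2* the difference of the hairpin libraries from the NC library of the same label was lower in 5637 than in UM-UC-3 (interaction −4.17 ± 0.39 on the log2 scale, SE, limma adjusted p = 0.0037). Related genes with a called interaction were *CNN2* (3.34 ± 0.67, limma adjusted p = 0.028), *MYH10* (1.73 ± 0.38, limma adjusted p = 0.035) and *ARPC4* (2.76 ± 0.66, limma adjusted p = 0.044) in the positive direction. In the negative direction they were *MYL12A* (−1.57 ± 0.39, limma adjusted p = 0.049), *RHOA* (−1.61 ± 0.38, limma adjusted p = 0.042), *TES* (−1.38 ± 0.35, limma adjusted p = 0.0497) and *SRF* (−1.57 ± 0.35, limma adjusted p = 0.036). *FLNC* (3.50) and *LPP* (−1.79) were called as well. *FLNC* passed the filter only through 5637 sh#1 and sh#2. *LPP*, at 0.925 and 0.680 FPKM in those libraries, passed only through the others, so both calls add nothing to the values. The 2 focal adhesion genes called in the negative direction as deposited include *LPP*. With the libraries rescaled to the same sum *SRF* lost its call, and 1 focal adhesion gene and 1 gene of the myosin list were called in the negative direction in place of 2 each. Scaled to 1 75th percentile, 3 focal adhesion genes and 1 assembly gene were called in that direction, in place of 2 and 0. The interaction cannot be formed without the library labelled 5637 NC. Since that library resembled UM-UC-3, a difference between the lines and a difference in response to knockdown cannot be told apart here.

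Sequence features that the choice of the genes did not use were read from RefSeq promoter windows (GRCh38.p14), which run from 250 bases before to 50 after a start site. They matched 7 of the 10 genes with 11 windows; *ACTB*, *MYL9* and *TAGLN* had no entry. The windows were searched on both strands for the CArG box bound by SRF, for the GC box GGGCGG and for the TEAD motif CATTCC. A CArG box was found in 2 windows, 1 each of *ACTG1* and *ACTN1*, and 1.29% of 35116 windows of all genes hold it. The GC box was found in 9 windows, of all 7 genes (44.95% of all windows), and the TEAD motif in 2 windows, of *ACTN1* and *VCL* (14.03% of all windows). The 11 windows were rich in G and C, with a median of 71.0% against 58.7% over all windows. A match describes letters and is no evidence of binding. The 2 windows with a CArG box, in capitals, are shown beside 1 of *TPM2*, the gene with the widest log2 difference of the 7 tested, in which none was found. They lie at chr17:81512750-81513049 (minus strand), chr14:68977517-68977816 (minus strand) and chr9:35689876-35690175 (minus strand), and the CArG boxes start 94 and 171 bases before the start site.
ACTG1: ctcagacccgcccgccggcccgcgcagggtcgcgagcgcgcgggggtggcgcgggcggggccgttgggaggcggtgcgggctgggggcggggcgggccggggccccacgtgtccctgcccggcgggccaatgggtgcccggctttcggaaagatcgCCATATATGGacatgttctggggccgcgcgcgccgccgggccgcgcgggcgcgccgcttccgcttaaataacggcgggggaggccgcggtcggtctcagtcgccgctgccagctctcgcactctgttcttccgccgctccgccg
ACTN1: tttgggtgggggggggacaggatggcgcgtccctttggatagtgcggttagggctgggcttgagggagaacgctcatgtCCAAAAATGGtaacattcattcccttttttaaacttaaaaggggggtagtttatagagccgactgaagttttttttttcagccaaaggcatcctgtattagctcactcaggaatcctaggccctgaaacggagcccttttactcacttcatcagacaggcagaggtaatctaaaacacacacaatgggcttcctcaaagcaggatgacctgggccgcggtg
TPM2: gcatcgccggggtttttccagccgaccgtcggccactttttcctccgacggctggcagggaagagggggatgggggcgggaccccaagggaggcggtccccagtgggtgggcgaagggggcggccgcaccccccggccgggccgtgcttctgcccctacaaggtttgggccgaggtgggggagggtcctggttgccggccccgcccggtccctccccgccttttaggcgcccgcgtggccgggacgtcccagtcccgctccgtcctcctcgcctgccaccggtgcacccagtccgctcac

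For the 3 members with the widest range over the libraries, the genes with the most similar profile were looked up among 12716 others. Likeness was the root mean square difference of log2 values, each centred on its own mean, over the 6 libraries. Nearest to *TPM2* were *TSHZ3* (0.129) and *TMCC1-AS1* (0.134), nearest to *ACTB* were *PGAM1P7* (0.10) and *SLC27A4* (0.103), and nearest to *VCL* were *HAUS6* (0.0682) and *PRIM2* (0.0685). The first 2 were at 3.73 to 6.90 FPKM in UM-UC-3 and the library labelled 5637 NC and at most 0.117 in 5637 sh#1 and sh#2, so they passed the filter only through the first 4 libraries and the added 0.5 largely sets their distance to *TPM2*, whose FPKM fell less. *PGAM1P7*, at 0.605 to 1.06 FPKM outside 5637 sh#1 and sh#2, is limited in the same way, and the likeness of these 3 genes is not read further. No other member was among the nearest genes. *ACTG1* ranked 1187 in likeness to *ACTB*, *ZYX* ranked 610 in likeness to *VCL*, and the closest member to *TPM2*, *ZYX*, ranked 1521.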

How the data were processed

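Total RNA of 6 samples was made into stranded mRNA libraries and sequenced. Per the submitters' processing notes the authors aligned reads with HISAT2 to hg38, and deposited FPKM values per gene; the counter and annotation are not given in the sources used here. Of 50869 rows, 1 held no values and was left out. Fragment depth was recovered from genes with a single exon in GENCODE 29, whose values were whole fragments within 0.02 in at least 99.96% of cases; member lengths are unknown, so fragments are given as a range from the shortest transcript to all exons. The floor of 3 fragments covers counting error only.

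Tests used limma 3.58.1 (R 4.3.3; Python 3.11.15 for the rest), lmFit and eBayes with a trend, on log2(FPKM + 0.5) of genes averaging 1 FPKM or more in the libraries compared, with Benjamini-Hochberg adjustment over all genes and a threshold of 0.05. Differences are on that scale, which understates the change of low genes. The code was tested on simulated data. The lines were compared in the 4 knockdown libraries, knockdown over all 6 libraries with line as a covariate, and their interaction over all 6. A count model was not used, since FPKM are not counts.

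Named genes were all 10 members and, from each other list, the most abundant gene by its mean and at most the 4 called genes with the largest difference. *TBP*, *TPM3*, *TPM4*, *MKL1*, *MKL2*, *MYOCD*, *MYH11*, *DES*, *COL3A1*, *PDGFRA*, *PTPRC*, *CD14* and *VWF* are outside this rule and were chosen after their values were seen. The members and lists were chosen with earlier results of these data known. Other pseudocounts, filters, scalings, left-out libraries and groupings were tried. Sharing of sequence was checked as the share of 50-base words of a gene's transcripts that occur in another gene: 4.84% for *ACTB*, 4.10% for *ACTN1*, 2.31% for *ACTG1*, and at most 1.03% for the other members. It was not checked for LINC01296, which GENCODE 29 lists as a transcribed processed pseudogene, so misplaced reads may affect its values. The kit keeps strand, but whether counting used it is not given, so reads of overlapping antisense genes may be included.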

Additional observations from a re-analysis of the deposited data

Results flagged for a closer look

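In *TPM2* the difference from the NC library of the same label was not the same in the lines: the interaction, 5637 minus UM-UC-3, was −4.17 on the log2 scale (limma adjusted p = 0.0037), with both 5637 hairpin libraries under the library labelled 5637 NC and both UM-UC-3 hairpin libraries over UM-UC-3 NC. It passed in each of 11 alternative settings, with values from −4.35 to −3.99 (limma adjusted p 0.0027 to 0.033), all of which use the library labelled 5637 NC. In that library *TPM2*, at 46.7 FPKM, was within the UM-UC-3 range of 31.6 to 62.6 FPKM. Each NC is 1 library, and the library labelled 5637 NC went against its line label, so the interaction does not show that the lines respond differently to knockdown.

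In *TPM1* both hairpin libraries were above NC in UM-UC-3 (log2 differences of 0.02 and 0.25) and both below the library labelled NC in 5637 (−0.74 and −0.70). The interaction was −0.86 and did not pass the threshold (limma adjusted p = 0.14), so the opposite directions are not shown to be a difference between the lines. With the libraries rescaled to the same sum, the first of these values was −0.07, and the directions were no longer opposite with both hairpins.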

How the results depend on the processing

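Of 98 single-gene values for 5637 against UM-UC-3 in the knockdown libraries, 7 members under 14 alternatives, 74 kept their side of the threshold, 24 lost the call and 0 changed direction. *TPM2* passed in 13 of 14, *ZYX* and *TPM1* in 11, *ACTB* and *ACTG1* in 10, *VCL* in 5 and *ACTN1* in 0. The count of 4949 genes called became 2325 with a filter of 5 FPKM, which tests fewer genes, and 2 with all 6 libraries grouped by labelled line, where the count of members fell from 6 to 0. Leaving out 1 library gave 1192 to 5573 genes and 1 to 5 members. The fit with the hairpin number as a replicate block called 5250 genes and 6 members. The hairpin number marks a construct and not a shared culture, and 2 pairs are too few to check whether it pairs the libraries.

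For knockdown in both lines, leaving out 1 library gave 0 to 4025 genes and 0 to 2 members, the highest without UM-UC-3 NC. Without the library labelled 5637 NC, and equally in the UM-UC-3 libraries alone, the difference changed sign for *ACTN1*, *TPM1* and *TPM2*, to −0.035, 0.14 and 0.80; over the libraries left out they ran from −0.035 to 0.15, from −0.72 to 0.14 and from −3.37 to 0.80. For the interaction, 2388 genes became 883 with the filter of 5 FPKM and 498 to 4105 with 1 library left out; the member count stayed at 1, and *VCL* ran from −0.48 to 0.011, changing sign without 5637 sh#2. Scaling moved the median interaction over all genes from −0.01 to −0.11 (75th percentile) or 0.13 (same sum).

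The 173 genes past 2-fold in UM-UC-3 became 260 and 108 with pseudocounts of 0.1 and 1, 87 with the filter of 5 FPKM, 817 at 1.5-fold (1 member), 4 at 5-fold, and 1305 and 422 with sh#1 or sh#2 alone. The 3932 in 5637 became 1899 with that filter, 6452 at 1.5-fold (6 members in place of 2) and 1106 at 5-fold (1 member). Causes beyond the settings themselves were not tested. Of 112 single-gene changes from NC under other scalings and pseudocounts, 18 shifted beyond the SD of the hairpins. A count-based test was not run, since the values are FPKM, and the interaction could not be fitted without either NC library. Depth limits *MYL9*, *TAGLN* and *CNN1*.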

Other observations

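*ACTBL2*, an actin gene with a single exon that was outside the lists and chosen after its values were seen, was measured at 0, 0.0161 and 0 FPKM in UM-UC-3 NC, sh#1 and sh#2, listed at 0 in the library labelled 5637 NC, and at 0.895 and 2.20 FPKM in 5637 sh#1 and sh#2. These values correspond to 52 and 119 fragments in 5637 sh#1 and sh#2, against 1 fragment in UM-UC-3 sh#1. It was not part of any count above.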
